A study of Mus musculus with 9 samples.

Results

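T cell receptor gene segments were described in peritoneal exudate cells of diabetic and control mice. The members are all 205 rows, of 41096 genes in the deposited expression table, whose biotype marks a T cell receptor variable (V), diversity (D), joining (J) or constant (C) segment. A row was placed in a locus by the first letters of its name (135 rows) or, for 7 rows with older names such as Tcrg-C4, by the RefSeq synonym. The alpha locus had 83 rows, the beta locus 39, the gamma locus 10 and the delta locus 10. The other 63 rows, 37 of them pseudogenes, carry only an identifier and are counted as unnamed. No read fell in 111 rows, 53 rows held 1 to 9 reads in the 9 samples together, and 41 rows held 10 or more.

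All mice were Apoe-/-, a genotype that lacks apolipoprotein E and is prone to atherosclerosis. The 4 diabetic samples came from mice given streptozotocin, a toxin of insulin-producing cells, as 5 daily doses of 40 mg/kg that began at 8 weeks of age. The 5 control samples came from mice given citrate buffer in its place. A western diet followed for 8 weeks in either group. Then 1.5 mL of 3% thioglycollate, which irritates the peritoneum and recruits white blood cells, was injected, and the cavity was rinsed with 10 mL of buffer 3 days later. The labels call the cells peritoneal macrophages and describe no sorting step, and whether each sample is 1 mouse or several is not stated, so every p-value reflects variation between these samples, which may in part be technical. In such whole-exudate RNA, more T cells and more receptor RNA per T cell cannot be told apart.

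A developing T cell builds its receptor genes by joining a V, a J and, in the beta and delta loci, a D segment, after which the joined exon is spliced to a constant segment. Most T cells carry an alpha and a beta chain and recognise peptides on MHC molecules together with the co-receptor CD4 or CD8. A smaller lineage carries a gamma and a delta chain, resides in barriers and body cavities, and responds early in inflammation. Every receptor is carried to the surface and signals through the CD3 chains.

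The most-read V segments of the beta, gamma and delta loci are shown first, as examples of variable segments. These are the last bases, up to 300, of the last coding exon in GENCODE M21 on GRCm38, all on the plus strand: chr6:41121539-41121832 for Trbv13-2, chr13:19190630-19190929 for Tcrg-V6 and chr14:54075217-54075515 for Trdv4. Capitals mark TGT, the codon of the cysteine where the V segment ends and the hypervariable junction begins. The letters TGT were found, on the coding strand, in the last 30 bases of 169 of 178 annotated V coding parts (94.9%).
Trbv13-2: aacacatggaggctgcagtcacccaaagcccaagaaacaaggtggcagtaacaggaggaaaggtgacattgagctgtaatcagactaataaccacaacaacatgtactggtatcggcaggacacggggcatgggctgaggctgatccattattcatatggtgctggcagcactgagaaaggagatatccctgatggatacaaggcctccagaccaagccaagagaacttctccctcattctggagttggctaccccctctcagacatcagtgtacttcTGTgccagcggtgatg
Tcrg-V6: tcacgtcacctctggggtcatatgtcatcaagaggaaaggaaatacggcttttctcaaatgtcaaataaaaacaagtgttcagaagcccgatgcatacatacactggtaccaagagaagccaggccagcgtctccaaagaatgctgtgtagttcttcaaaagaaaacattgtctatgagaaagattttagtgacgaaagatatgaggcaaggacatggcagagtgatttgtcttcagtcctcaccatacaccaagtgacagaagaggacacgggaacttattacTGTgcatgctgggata
Trdv4: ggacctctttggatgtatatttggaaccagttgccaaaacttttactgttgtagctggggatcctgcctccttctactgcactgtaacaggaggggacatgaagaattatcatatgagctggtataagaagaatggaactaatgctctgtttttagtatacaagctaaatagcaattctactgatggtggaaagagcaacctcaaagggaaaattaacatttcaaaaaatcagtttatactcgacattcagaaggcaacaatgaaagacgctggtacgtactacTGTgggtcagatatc

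D and J segments are shown because their length decides how FPKM reads for them. FPKM is the number of fragments per kilobase of a gene and per 1e6 reads, so 1 read in a 12-base segment counts far more than 1 read in a constant segment. Trbj1-1 lies at chr6:41533864-41533911, Trdj2 at chr14:54136779-54136837, Trgj4 at chr13:19342152-19342212, Trbd1 at chr6:41533201-41533212 and Trbd2 at chr6:41542163-41542176, all on the plus strand of GRCm38. Capitals mark TTTGG, the codon of the conserved phenylalanine of J segments and the start of the glycine codon after it. TTTGG or TTCGG was found on the coding strand in 58 of 70 annotated J segments (82.9%).
Trbj1-1: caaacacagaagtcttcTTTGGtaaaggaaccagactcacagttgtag
Trdj2: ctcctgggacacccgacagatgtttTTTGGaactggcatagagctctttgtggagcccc
Trgj4: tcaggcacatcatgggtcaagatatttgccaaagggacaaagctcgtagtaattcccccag
Trbd1: gggacagggggc
Trbd2: gggactgggggggc
One read was worth 5.17 to 5.93 FPKM in Trbd1, 1.29 to 1.48 FPKM in Trbj1-1, 0.183 to 0.209 FPKM in Trbv13-2 and 0.0162 to 0.0186 FPKM in Trdc, depending on the sample. A sum of FPKM over a locus therefore weights its shortest rows up, and reads per 1e6 reads in genes are given beside it.

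The beta locus has 2 constant segments, Trbc1 and Trbc2, that encode almost the same chain. Reads may be split or shared between the Trbc1 and Trbc2 rows, so their separate values are less certain than their sum.

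Libraries held 14156421 to 16169060 reads in genes. Of 11193 genes tested, 300 were higher in diabetic samples (2.68%) and 233 were lower (2.08%) at a Benjamini-Hochberg adjusted p below 0.05 by limma on log2(FPKM + 1). Diabetic sample 3 stood apart from the other diabetic samples. Its summed FPKM over 11 T cell marker genes was 184, against 339 to 495 in the other diabetic samples and 112 to 163 in the controls. Much of that sum was Cd2, at 87.2 FPKM in diabetic sample 3 and 73.9 to 118 FPKM in controls. Cd2 did not pass (limma adjusted p = 0.15), and 8 of the 9 markers tested passed as higher. Where a result rests on diabetic sample 3, its value or the result without it is given.

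All 5 constant segments in the table were higher in diabetic samples, where 2.68% of all tested genes were. Trac, the constant segment of the alpha chain, had 33.7, 57, 15.3 and 43.5 FPKM in diabetic samples 1 to 4, against 4.91, 5.54, 7.30, 4.36 and 2.67 FPKM in control samples 1 to 5. The lowest diabetic value was above the highest control value. The means were 37.4 ± 17.5 FPKM in diabetic samples (SD, n = 4) and 4.96 ± 1.69 FPKM in controls (SD, n = 5), a ratio of 7.54, and limma gave a log2 fold change of 2.60 (SE 0.35, adjusted p = 0.0063).

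Trbc2 had 92.4, 187, 25.4 and 115 FPKM in diabetic samples 1 to 4, against 11.2, 13.5, 22.4, 16.5 and 12.5 FPKM in controls 1 to 5. Here diabetic sample 3 stood just above control sample 3, and the other diabetic samples were far above all controls. The log2 fold change was 2.44 (SE 0.48, limma adjusted p = 0.024). Trbc1 had 43.9, 81.9, 18.1 and 73.0 FPKM in diabetic samples, against 8.60, 11.2, 10.2, 11.6 and 7.04 FPKM in controls, with no overlap and a log2 fold change of 2.18 (SE 0.38, limma adjusted p = 0.017). Trbc2 no longer passed when any of controls 1, 2 and 5 or diabetic samples 1, 2 and 4 was left out, and Trbc1 no longer passed without diabetic sample 4.

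The gamma and delta constant segments were lower in level, and both were higher in diabetic samples. Trdc, of the delta chain, had 2.04, 2.39, 3.14 and 1.87 FPKM in diabetic samples 1 to 4, against 1.16, 0.426, 0.750, 0.428 and 1.02 FPKM in controls 1 to 5. Tcrg-C4, the only gamma constant segment listed, had 2.0, 2.34, 3.26 and 1.76 FPKM in diabetic samples, against 1.31, 0.690, 0.782, 0.362 and 1.13 FPKM in controls. Neither overlapped between groups, and in both the highest value of all was in diabetic sample 3, the sample lowest of its group for Trac, Trbc1 and Trbc2. Reads of any other gamma constant segment would be outside Tcrg-C4 and outside the gamma sums and ratios below.

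The ratio of mean FPKM was 3.12 for Trdc and 2.74 for Tcrg-C4. The limma log2 fold changes were 0.94 for Trdc (SE 0.17, adjusted p = 0.016) and 0.85 for Tcrg-C4 (SE 0.18, adjusted p = 0.026), on a scale that understates the change of rows with so low an FPKM. On recovered reads (limma-voom) they were 1.76 and 1.53. Tcrg-C4 no longer passed without control sample 3 or without diabetic sample 1, 2 or 4. In the table Trdc shares 207 bases with Trdv5, which lies on the other strand and held 10 reads against 762 for Trdc. The strand setting of the counting is not given in the sources used here, so reads in the shared bases cannot be told apart. The limma fit gave Trac and Trdc an adjusted p below 0.05 with any 1 sample left out.

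**Figure D1:**
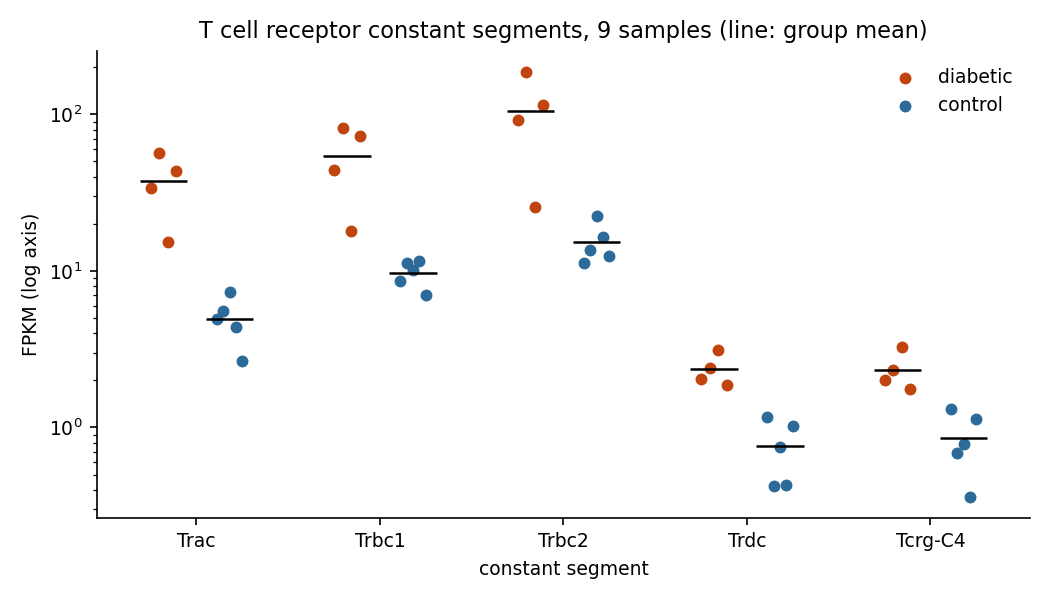
FPKM (log axis) of the 5 constant segments in each sample, with diabetic samples (n = 4) left of control samples (n = 5) and a line at each group mean. Diabetic and control points do not overlap in any of the segments; Trac spans 15.3 to 57 FPKM in diabetic samples and 2.67 to 7.30 FPKM in controls.

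Summed over all rows of a locus, the alpha segments reached 44.0, 66.1, 18.2 and 52.9 FPKM in diabetic samples 1 to 4 and 6.59, 7.73, 8.00, 5.68 and 4.23 FPKM in controls 1 to 5. The beta segments reached 244, 505, 92.8 and 423 FPKM in diabetic samples and 68.6, 73.7, 89.5, 56.2 and 43.1 FPKM in controls. Both loci were higher in every diabetic sample than in any control, with diabetic sample 3 closest to the controls. The ratio of the group means was 7.03 for alpha and 4.77 for beta.

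The gamma segments summed to 8.63, 7.31, 19.9 and 12.0 FPKM in diabetic samples and 4.59, 2.56, 3.02, 0.988 and 3.50 FPKM in controls, again without overlap. The 3 short gamma J rows gave 3.18, 1.11, 11.5 and 6.38 FPKM of the diabetic sums, from 3, 1, 10 and 6 reads. In controls they gave 1.02 FPKM, 1 read, in control sample 5 and 0 in the others. The delta segments summed to 6.68, 8.78, 12.8 and 8.13 FPKM in diabetic samples and 11.0, 2.43, 3.43, 4.70 and 2.0 FPKM in controls. The delta sums overlapped, with control sample 1 above 3 of the 4 diabetic samples. In that control a single read in the 16-base segment Trdd2 was worth 4.02 FPKM. In reads per 1e6 reads in genes the delta sums did not overlap, with 8.92 to 14.1 in diabetic samples and 2.29 to 6.46 in controls.

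On that read scale the ratio of diabetic to control means was 7.48 for alpha, 6.69 for beta, 2.67 for gamma and 2.83 for delta. Diabetic sample 3 alone stood at 2.88 times the control mean for alpha and 1.91 times for beta, but at 3.63 times for gamma and for delta. Without it the ratios became 9.01 for alpha, 8.28 for beta, 2.35 for gamma and 2.56 for delta. These sums are given as a description, with no test.

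**Figure D2:**
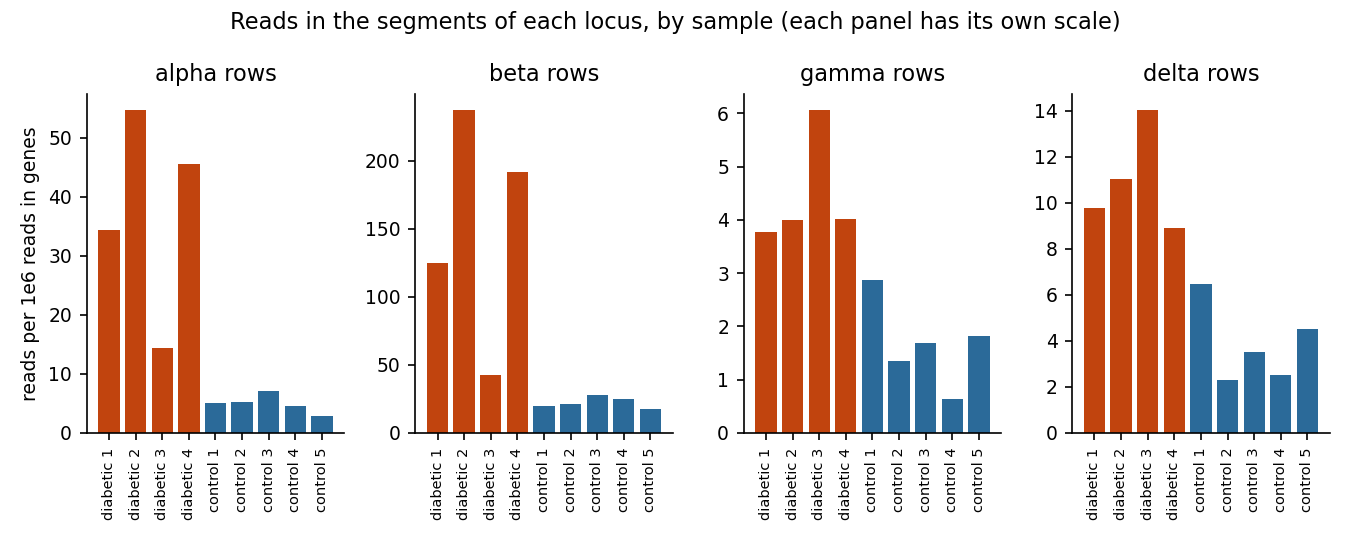
Reads in all segments of each locus per 1e6 reads in genes, by sample, with the 4 diabetic samples left of the 5 control samples and a separate scale in each panel. Diabetic sample 3 is the lowest diabetic bar for alpha (14.3) and beta (42.6) and the highest for gamma (6.07) and delta (14.1).

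The V segments of the beta chain, each of which gives a beta chain its own antigen-contacting loops, were the best-read variable segments, with 2016 reads over 22 rows. Of the 14 that met the minimum level, 10 were higher in diabetic samples and 0 lower, where 2.68% of all tested genes were higher. Some of the 10, such as Trbv26, Trbv12-1, Trbv12-2 and Trbv19, met that level through the diabetic samples alone. The count, and the p-values of such rows, are therefore a description. Trbv26 had 3.12, 4.06, 3.05 and 4.37 FPKM in diabetic samples 1 to 4, against 0, 0.185, 0, 0.582 and 0 FPKM in controls 1 to 5. All diabetic values lay together well above the controls, which held 4 reads in all, and the log2 fold change was 2.02 (SE 0.17, limma adjusted p = 0.0015). This was the smallest adjusted p of any segment, in a row that had to differ between the groups to be tested.

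Trbv12-1 had 3.27, 6.27, 3.23 and 5.60 FPKM in diabetic samples, against 0.496, 0.175, 0.540, 0 and 0 FPKM in controls, a log2 fold change of 2.15 (SE 0.21, limma adjusted p = 0.0029). Trbv12-2 and Trbv19 also passed, each with all diabetic values above all control values. Trbv12-2 had 1.82 to 5.98 FPKM in diabetic samples and 0.161 to 0.502 FPKM in controls. Trbv19 had 2.10 to 5.89 FPKM in diabetic samples and 0.252 to 0.569 FPKM in controls.

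Trbv13-2, the best-read V segment of the locus, had 6.17, 14.2, 2.26 and 10.2 FPKM in diabetic samples, against 0.189, 1.40, 1.03, 1.89 and 0.730 FPKM in controls. Diabetic sample 3 lay close to control sample 4, and the log2 fold change was 2.02 (SE 0.42, limma adjusted p = 0.028). Trbv16 had 4.63, 13.1, 1.58 and 8.38 FPKM in diabetic samples, against 0.162, 0.683, 0, 1.43 and 0.624 FPKM in controls, with the same small gap at diabetic sample 3 (log2 fold change 2.14, SE 0.45, limma adjusted p = 0.030). Trbv15, Trbv17, Trbv3 and Trbv20 passed with log2 fold changes of 2.05, 1.81, 1.52 and 1.38. Of the 9 fits without 1 sample, Trbv16 passed in 2, and Trbv13-2, Trbv3 and Trbv20 in 3 each. Trbv20 also did not pass on recovered reads (limma-voom adjusted p = 0.058) or with a pseudocount of 0.1. Trbv20 was the only one of the 10 whose groups overlapped, at 1.04 FPKM in diabetic sample 3 and 1.06 FPKM in control sample 4.

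The 4 tested Trbv rows that did not pass were Trbv13-1, Trbv29, Trbv1 and Trbv14, with log2 fold changes of 1.67, 1.56, 1.39 and 1.22. Trbv13-1 missed narrowly (SE 0.41, limma adjusted p = 0.050) and had a limma-voom adjusted p of 0.044 on recovered reads. Trbv1 had 2.44, 6.18, 2.85 and 8.15 FPKM in diabetic samples, against 1.39, 0.489, 3.02, 1.71 and 0 FPKM in controls. Control sample 3 thus stood above 2 of the diabetic samples. Trbv13-3, Trbv2 and Trbv31 were under the minimum level, with diabetic sample 3 under 1 FPKM in each. Trbv13-3 had 5.05, 7.18, 0.822 and 5.47 FPKM in diabetic samples and 0.209 to 0.947 FPKM in controls.

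**Figure D3:**
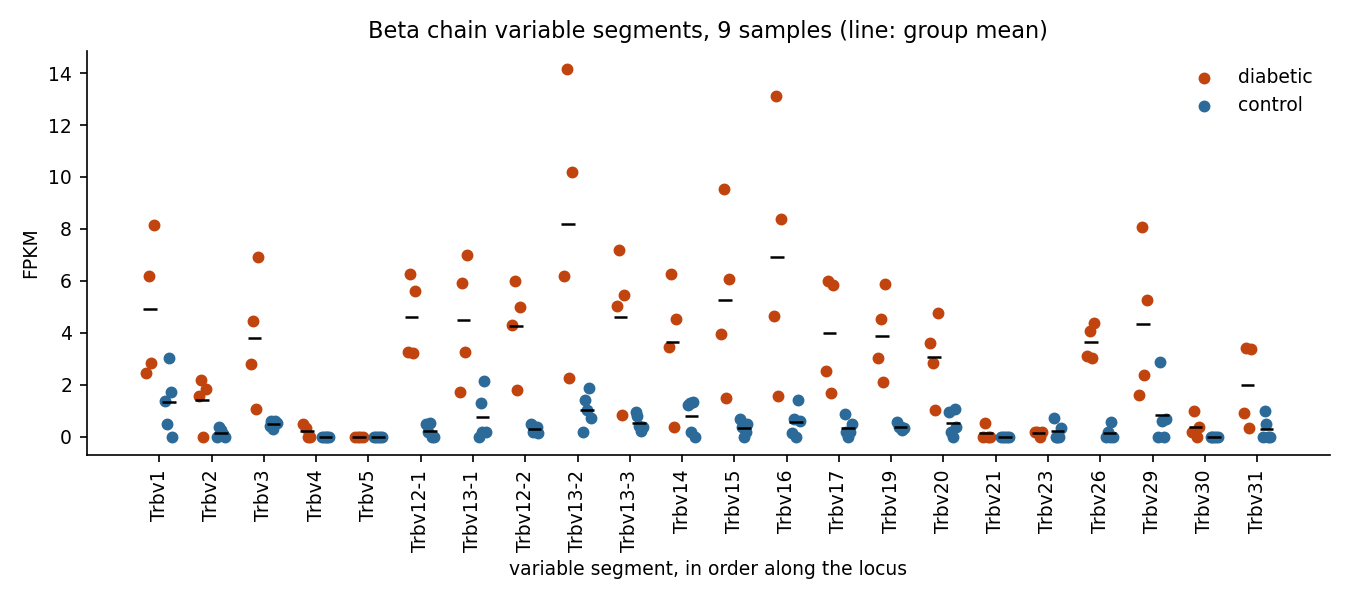
FPKM of the 22 beta V segments in each sample, in order along the locus, with diabetic samples (n = 4) left of control samples (n = 5) and a line at each group mean. Trbv13-2 reaches 14.2 FPKM in diabetic samples and 1.89 FPKM in controls, while Trbv5 has no read in either group.

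The distribution of reads among beta V segments was compared as shares of all Trbv reads, of which diabetic samples 1 to 4 held 337, 639, 164 and 608 and control samples 1 to 5 held 55, 70, 45, 65 and 33. No single segment dominated a diabetic sample. The largest share there was 12.1%, Trbv16 in diabetic sample 2 (exact 95% binomial interval 9.63% to 14.8%). In controls the largest was 40.0%, Trbv1 in control sample 3, with 18 of 45 reads (exact interval 25.7% to 55.7%), followed by 21.4%, Trbv29 in control sample 2, with 15 of 70 reads (exact interval 12.5% to 32.9%). These intervals cover counting error only, and reads copied from 1 molecule by PCR are not told apart in them.

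No Trbv share separated the groups. Trbv13-2 held 6.71% to 11.1% of Trbv reads in diabetic samples and 1.82% to 13.8% in controls. Trbv1 held 4.75% to 10.4% in diabetic samples and 0 to 40.0% in controls. Between 16 and 21 of the 22 rows had a read in diabetic samples and 12 to 17 in controls. At a common depth of 33 reads, the rows expected were 14.6, 14.5, 13.1 and 14.4 in diabetic samples 1 to 4 and 11.9, 13.4, 11.1, 11.4 and 12.0 in controls 1 to 5. Diabetic sample 3 lay below control sample 2, and the other diabetic samples lay above all controls.

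D and J rows of the beta locus met the minimum level with few reads, since 1 read can exceed 1 FPKM. Trbd1 had 21 reads in diabetic samples and 11 in controls, and Trbd2 had 9 in diabetic samples and 3 in controls. The 13 Trbj rows together held 132 reads in diabetic samples and 61 in controls, and the summed FPKM ran from 19.9 to 74.6 in diabetic samples and 8.27 to 22.5 in controls, with overlap. Of the 2 D and 8 J rows tested, 0 passed. Trbj1-1 had 3.98, 0, 8.74 and 17.4 FPKM in diabetic samples, against 8.05, 2.83, 2.92, 5.93 and 6.47 FPKM in controls. It was the single tested segment row with a negative log2 fold change (-0.11, SE 0.72, limma adjusted p = 0.95), although its mean FPKM was higher in diabetic samples. Its sign turned positive with a pseudocount of 5 (0.11).

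The alpha V and J rows held few reads beside Trac, and 0 of the 82 met the minimum level. These rows are shorter than Trac, and FPKM allows for length. Their summed FPKM averaged 7.93 in diabetic samples and 1.49 in controls, against 37.4 and 4.96 FPKM for Trac. The 31 alpha V rows held 62 reads in diabetic samples and 27 in controls, while Trac held 2112 reads in diabetic samples and 341 in controls. The 51 alpha J rows held 20 reads in diabetic samples and 3 in controls. Among the 31 alpha V rows, 18 have another V segment at 95% identity or more in GENCODE M21, and these 18 held 18 reads in all, while the 13 without such a copy held 71, of which 34 were in 1 row. The median of those 13 rows was 3 reads. Of 22 beta V rows, 0 have such a copy, and their median was 106.5 reads. How the counting treated reads that fit several copies is not given in the sources used here, and the part of copies in the low alpha V values was not tested.

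The best-read alpha V row, B230359F08Rik (Trav13-5 in RefSeq), was the only one of the 41 rows with 10 or more reads whose mean was not higher in diabetic samples. It had 0.896, 0, 0.328 and 0.752 FPKM in diabetic samples, against 0.604, 0.957, 0.329, 1.0 and 0.437 FPKM in controls, from 13 reads in diabetic samples and 21 in controls. Trav19, next in reads, had 10 reads in diabetic samples and 2 in controls. Trav4-3 and Trav3-1 had 8 reads each in diabetic samples and 0 in controls, and Trav17 had 8 in diabetic samples and 1 in controls, values too low to test.

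Among delta V segments, Trdv4, which in mice is paired with the gamma V6 chain in a lineage of innate-like T cells, was read most. It had 2.15, 2.75, 4.41 and 1.59 FPKM in diabetic samples 1 to 4, against 3.62, 1.84, 0.631, 0.802 and 0.979 FPKM in controls 1 to 5. Control sample 1 stood above 3 of the 4 diabetic samples, and the groups overlapped (log2 fold change 0.59, SE 0.32, limma adjusted p = 0.30). Tcrg-V6, its gamma partner, had 1.2, 3.04, 2.47 and 2.12 FPKM in diabetic samples, against 1.97, 0.801, 0.495, 0.336 and 0.878 FPKM in controls. It did not pass either (log2 fold change 0.78, SE 0.24, limma adjusted p = 0.091), and it did pass when control sample 1 was left out.

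Control sample 1 was thus the highest control for Trdv4 and Tcrg-V6, and also for Trdc and Tcrg-C4. Trgv2 is a gamma V segment with a near copy in GENCODE M21 (Tcrg-V1, 95.1% identity). It had 1.04, 0.138, 2.28 and 0.522 FPKM in diabetic samples, against 1.31, 0.692, 0.713, 0.290 and 0 FPKM in controls. Tcrg-V4 held 8 reads in diabetic samples and 1 in controls. Tcrg-V5, the V segment of skin-resident gamma delta T cells, held 6 reads in each group. Tcrg-V7, typical of the gut epithelium, held 2 reads in diabetic samples and 0 in controls.

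The joining segment Trgj4 had 0, 1.11, 8.02 and 2.10 FPKM in diabetic samples and 0, 0, 0, 0 and 1.02 FPKM in controls, the last being 1 read. Trdj2 had 1.08, 2.30, 3.55 and 4.35 FPKM in diabetic samples and 2.18, 0, 0, 2.41 and 0 FPKM in controls. Neither passed, with limma adjusted p of 0.20 for Trgj4 and 0.18 for Trdj2. The antisense rows that overlap Trdv4, Tcrg-V6, Trdj2 and Trdc held 1 or 2 reads each.

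**Figure D4:**
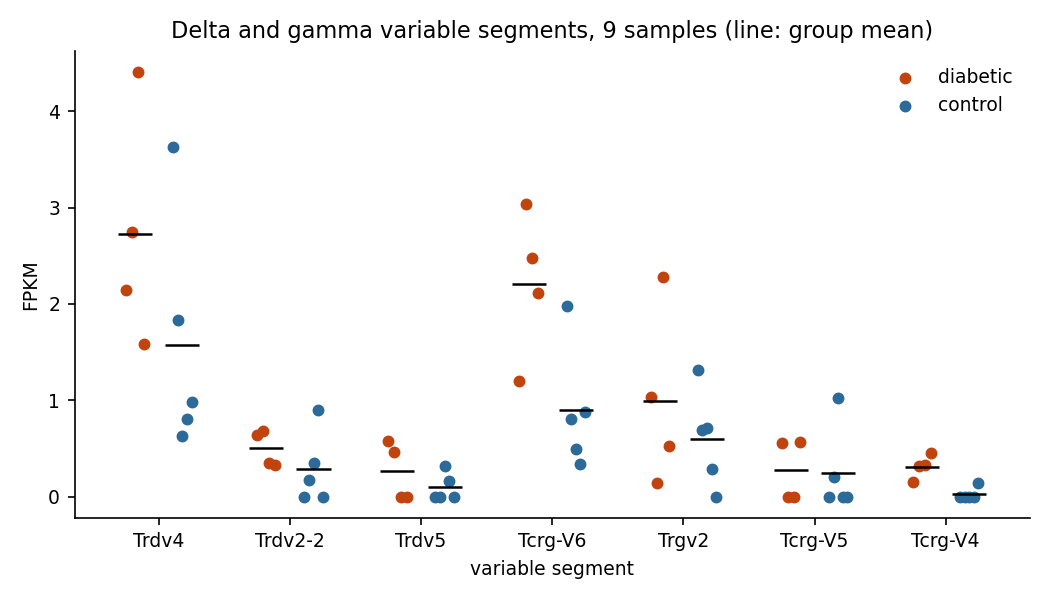
FPKM of 3 delta and 4 gamma V segments in each sample, with diabetic samples (n = 4) left of control samples (n = 5) and a line at each group mean. The groups overlap for Trdv4 (1.59 to 4.41 FPKM in diabetic samples, 0.631 to 3.62 FPKM in controls) and for Tcrg-V6 (1.2 to 3.04 FPKM in diabetic samples, 0.336 to 1.97 FPKM in controls).

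Segments of invariant receptors were looked up by name. Natural killer T cells of mice use Trav11 with Traj18, and mucosal-associated invariant T cells use Trav1 with Traj33. Traj18 and Traj33 had 0 reads in all 9 samples, as did Trav11d, the copy of Trav11 that the table lists. Trav1 had 0 reads in diabetic samples and 3 in controls, in control samples 3 and 5. At the depth of the alpha J rows, 23 reads over 51 rows, these zeros do not show that either lineage was absent.

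The balance between the loci was read from ratios of recovered reads within a sample. These and the later read ratios are not corrected for row length, which is 931 bases for Trac and 3830 for Trdc. They therefore compare samples and do not give the relative amounts of the RNAs. Trac held 4.01, 5.80, 1.19 and 5.64 reads per Trdc read in diabetic samples 1 to 4, against 1.03, 3.17, 2.37, 2.48 and 0.635 in controls 1 to 5. Diabetic samples 1, 2 and 4 were above all controls and diabetic sample 3 was among them. The mean log2 ratio was 1.10 higher in diabetic samples, which did not pass an exact two-sided permutation test (p = 0.17, adjusted to 0.25 over 3 ratios; the smallest p possible is 0.0079). Leaving out 1 sample moved the difference from 0.76 without control sample 5 (exact permutation p = 0.31) to 1.63 without diabetic sample 3 (exact permutation p = 0.054). The smallest permutation p possible is then 0.014 without a control sample and 0.018 without a diabetic sample.

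Within the alpha beta receptor and within the gamma delta receptor the ranges of the groups overlapped. Trbc1 and Trbc2 together held 2.19 to 3.59 reads per Trac read in diabetic samples and 3.10 to 5.60 in controls. Tcrg-C4 held 0.241 to 0.267 reads per Trdc read in diabetic samples and 0.217 to 0.417 in controls. Trac against the summed reads of Cd3d, Cd3e, Cd3g and Cd247 was 0.165 to 0.214 in diabetic samples and 0.0957 to 0.194 in controls, a log2 difference of 0.37 (exact permutation p = 0.10, adjusted to 0.25). Trdc against the same genes was 0.0535, 0.0321, 0.170 and 0.0293 in diabetic samples and 0.136, 0.0612, 0.0732, 0.0632 and 0.151 in controls. That log2 difference was -0.73 (exact permutation p = 0.29). Leaving out 1 sample moved it from -0.44 without diabetic sample 4 (exact permutation p = 0.50) and -0.48 without diabetic sample 2 (exact permutation p = 0.48) to -1.28 without diabetic sample 3. The last had an exact permutation p of 0.036, not adjusted, where the smallest possible is 0.018.

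The partner genes of the receptor were read from a list of 24 genes, of which 16 were tested. Of these, 13 were higher in diabetic samples and 0 were lower, against 2.68% and 2.08% of all tested genes. Their median log2 fold change was 2.08, against -0.01 over all tested genes. Lef1, at 0.278 to 0.652 FPKM in controls, met the minimum level through the diabetic samples alone, so the count is a description. All 4 signalling chains of the receptor rose. Cd3e, a chain needed for receptor assembly, had 15.8, 26.3, 7.59 and 19.8 FPKM in diabetic samples, against 3.05, 1.84, 3.36, 2.38 and 2.81 FPKM in controls (log2 fold change 2.21, limma adjusted p = 0.0055). Cd3g, Cd3d and Cd247 had log2 fold changes of 2.33, 2.12 and 2.04, and Cd3d passed in 7 of the 9 fits without 1 sample. Diabetic sample 3 was the lowest diabetic sample for Cd3e, as it was for Trac.

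All 3 co-receptor genes, which mark the helper (Cd4) and cytotoxic (Cd8a, Cd8b1) lineages, rose. Cd8b1 had 45.8, 101, 18.3 and 82.8 FPKM in diabetic samples, against 3.00, 4.31, 6.75, 3.36 and 2.30 FPKM in controls (log2 fold change 3.48, SE 0.45, limma adjusted p = 0.0055). Cd8a had a log2 fold change of 2.60 and passed in 8 of the 9 fits without 1 sample. Cd4 had 6.69, 9.16, 3.12 and 9.43 FPKM in diabetic samples, against 1.53, 1.75, 2.01, 1.36 and 1.43 FPKM in controls (log2 fold change 1.55, SE 0.24, limma adjusted p = 0.010).

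Of the kinases and adaptors just below the receptor, Lck, Zap70 and Lat rose with log2 fold changes of 2.12, 1.51 and 1.54. Lat passed in 1 of the 9 fits without 1 sample and had a limma-voom adjusted p of 0.054, and Lck and Zap70 passed in all 9. Lcp2, an adaptor that myeloid cells also use, had a log2 fold change of 0.12 (limma adjusted p = 0.58). Among T lineage transcription factors, Tcf7 and Lef1 rose with 2.48 and 2.12, and Ets1 and Runx3 did not pass with 0.97 and 0.42. The genes that rearrange the segments, or form the receptor of immature thymocytes, were close to silent: Rag2 had 0 reads, Rag1 and Ptcra had 1 read each in 9 samples, and Dntt averaged 0.270 FPKM in diabetic samples and 0.195 FPKM in controls.

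Markers of other cells were read beside these. The labelled macrophages were present, with a summed FPKM of 6 macrophage markers of 1437 to 2462 in diabetic samples and 1902 to 2602 in controls, and 1 of the 6, Mrc1, passed as lower in diabetic samples, a call held in 1 of the 9 fits without 1 sample. B cell markers summed to 608 to 1431 in diabetic samples and 456 to 1009 in controls, and 0 of 7 passed. Natural killer cell markers summed to 85.8 to 118 in diabetic samples and 42.4 to 86.8 in controls, with 2 of 8 higher, Klrd1 and Nkg7, both also made by CD8 T cells. Nkg7 passed in 7 of the 9 fits without 1 sample. Mast cell markers summed to 103 to 361 in diabetic samples and 276 to 687 in controls, with a median log2 fold change of -0.84, and 0 of 4 tested passed (Tpsb2 -1.62, limma adjusted p = 0.053). Neutrophil markers (0 of 3 passed) summed to 60.0 to 438 in diabetic samples and 54.2 to 860 in controls, and dendritic cell markers (0 of 1 passed) to 5.13 to 8.18 in diabetic samples and 4.13 to 6.60 in controls. The 10 markers of gamma delta and innate-like T cells summed to 122 to 132 in diabetic samples and 104 to 124 in controls, 0 of 5 tested passed, and Il17a was at 0 in all samples. The 3 genes with the highest levels in that sum were Blk (52.3 FPKM in diabetic samples, 38.8 FPKM in controls), Tmem176a (36.3 FPKM in diabetic samples, 36.8 FPKM in controls) and Maf (32.9 FPKM in diabetic samples, 32.5 FPKM in controls), and other leukocytes make all 3. The part of cell composition in the segment values was not tested.

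Across all loci, 34 of the 205 segment rows met the minimum of 1 FPKM in at least 4 samples, 15 of these passed as higher and 0 as lower, where 2.68% of all tested genes were higher. The groups did not overlap, with diabetic above, in 14 of the 34 (4.82% of all tested genes), and in 14 of the 41 rows with 10 or more reads (4.16% of all genes with as many). With no minimum, 9 of 94 rows with a read passed as higher (0.574% of all genes so tested), and with a minimum of 10 reads in 4 samples 11 of 15 did (2.87%). Because the minimum asks for as many samples as there are diabetic samples, a row high only in that group could enter and had to differ; these counts are a description and do not stand for the other 171 rows. The 15 were the 5 constant segments and 10 Trbv rows. Without diabetic sample 3 the number passing was 17, without diabetic sample 2 it was 9 and without diabetic sample 4 it was 7. The 7 that passed with any 1 sample left out were Trac, Trdc, Trbv12-1, Trbv12-2, Trbv17, Trbv19 and Trbv26. Each of these fits kept the rows chosen on all 9 samples. Trbv12-1, Trbv12-2, Trbv19 and Trbv26 were among the rows that entered through the diabetic samples alone, so for them passing again is also a description.

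**Figure D5:**
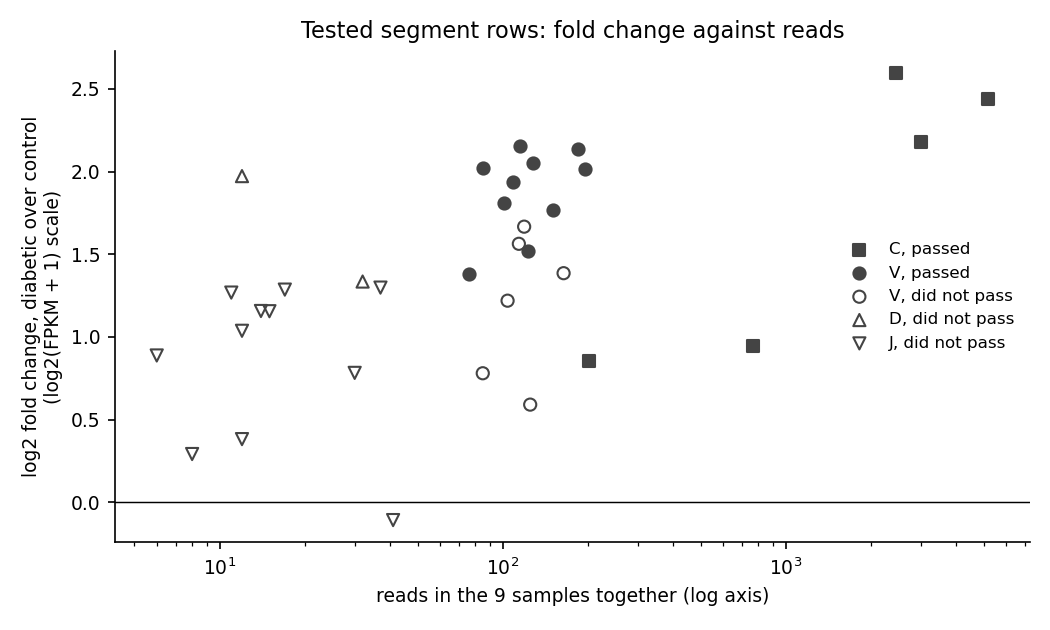
Log2 fold change of diabetic over control, on the log2(FPKM + 1) scale, against the reads in the 9 samples together (log axis) for the 34 tested segment rows, by segment class, with filled marks for rows that passed. No row under 76 reads passed, and Trbj1-1, at 41 reads and -0.11, is the only point under 0.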

How the data were processed

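Messenger RNA of 9 peritoneal exudate samples (4 diabetic, 5 control) was sequenced. The authors deposited 1 table of FPKM values for 41096 genes, with gene length, position and biotype, per the file headers. GRCm38 and mm10 are the builds named in the submitters' processing notes. How reads were aligned, counted and assigned to strands is not given in the sources used here. Its identifiers are of a C57BL/6NJ gene set. Of 141 segment names shared with GENCODE M21, 141 matched it in chromosome and 0 in start, so sequences are given by GRCm38 coordinates from GENCODE M21 and the build of the table's own positions is not named. All 9 sample columns were matched by title, and 0 were left unmatched.

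Each FPKM value times the gene length is a whole multiple of the worth of 1 read (100% of values within 0.05), which gave reads per row and 14156421 to 16169060 reads in genes per sample. A gene was tested if 4 or more samples reached an FPKM of 1. The values log2(FPKM + 1) of all 9 samples were modelled on group alone by limma (version 3.58.1, R 4.3.3), using lmFit followed by eBayes with trend and robust set, and two-sided p-values were adjusted by Benjamini-Hochberg over 11193 genes. Limma-voom on the recovered reads was an alternative, as were other pseudocounts, filters, scalings and moderation, sample weights, a replicate block and leaving out each sample. An exact permutation test was planned for constant segments under the minimum level; none was, so it was not run. The permutation tests of 3 read ratios were added after the values were seen.

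Named segments are all constant segments, the up to 4 highest rows of each locus and class with at least 10 reads, the up to 20 passing rows of smallest p, and segments known from invariant or innate-like T cells. Not every segment that this rule allows is described, and Gm16602 (Trgv1 in RefSeq) is among those left out. Trav17, Trav3-1, Trav4-3, Trbv13-1, Trbv14, Trbv2, Trbv31, Trbv5 and Trdd2 were named after their values were seen. The segments and gene lists were chosen with earlier results of these data known. The value of 1 gene of the partner list, which is counted in that list's totals, and some sequences are not reported here. The fit was also run on simulated data with known changes. Those changes were set only in better-read genes, so rows with few reads are not covered by it.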

Additional observations from a re-analysis of the deposited data

Results flagged for a closer look

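Among rows with at least 10 reads, 76 groups of samples were looked at for a single sample far from the others of its group. Of these, 6 stood out. A chance rate of about 1 in 20 groups cannot be set against this number. In rows with few reads, 1 read beside zeros can stand out, so the number is a description. All 6 are control samples. Trav19 was at 0.319 FPKM in control sample 4 and at 0 in the other controls. Trbd2 was at 15.0 FPKM in control sample 3 and at 0 in the other controls, and Trbj2-1 was at 11.2 FPKM in the same sample, against 0 to 2.58 FPKM in the others. Tcrg-V5 was also highest in control sample 3, at 1.03 FPKM against 0 to 0.199 FPKM. Trbv29 was at 2.89 FPKM in control sample 2, against 0 to 0.703 FPKM in the other controls. Trgj4 was at 1.02 FPKM, 1 read, in control sample 5 and at 0 in the others.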

How the results depend on the processing

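The number of segment rows that passed was 15. It was 14 with a pseudocount of 0.1, 15 with a pseudocount of 5, 15 by limma-voom, 16 after rescaling to plain totals, 16 without trend and robust moderation and 18 with sample weights. With no filter it was 9 of 94 rows tested (0.574% of all genes), and with a filter of at least 10 reads in at least 4 samples it was 11 of 15 (2.87%). Leaving out 1 sample gave 7 to 17. With the replicate number as a block it was 8, of which 7 were among the 15, and Trac and Trdc did not pass; diabetic and control samples of the same number correlated at 0.023, 0.16, -0.26 and -0.18, and of the 4 diabetic samples only number 2 correlated best with its own number, so the numbers were not taken as pairs. In no fit was a segment row lower in diabetic samples. Trbj1-1 changed sign, to 0.11 with a pseudocount of 5 and to a range of -0.69 (without diabetic sample 4) to 0.71 (without diabetic sample 2) when 1 sample was left out, with 0.049 without control sample 1, never passing; the cause was not tested. The log2 ratio of locus sums ranged, with 1 sample left out, from 2.57 to 3.07 for alpha, 1.93 to 2.56 for beta, 1.67 to 2.25 for gamma and 0.74 to 1.54 for delta. Depth limits the D, J and alpha V rows, at 0 to 41 reads a row in 9 samples, and the other V rows with few reads.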

Other observations

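Some values belong to no comparison of the design and were noticed after the data were seen; they are given without a test. Reads of Trac per read of Cd8b1 were 0.462, 0.354, 0.526 and 0.330 in diabetic samples 1 to 4 and 1.03, 0.809, 0.678, 0.814 and 0.727 in control samples 1 to 5, without overlap. Reads of Trac per read of Cd4 were 1.16, 1.44, 1.13 and 1.07 in diabetic samples and 0.740, 0.731, 0.836, 0.740 and 0.430 in controls, also without overlap and in the opposite direction. Reads of the alpha V rows per read of Trac were 0.0365, 0.0255, 0.0196 and 0.0316 in diabetic samples and 0.0563, 0.0921, 0.0412, 0.140 and 0.10 in controls. Reads of the beta V rows per read of Trbc1 and Trbc2 were 0.221 to 0.368 in diabetic samples and 0.136 to 0.268 in controls, with overlap.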
